A study of Homo sapiens with 15 samples.

Results

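BMAL1 peaks at promoters that were called in shControl cells, held no HIF2α peak and were absent from the peak list of BMAL1-depleted cells were examined. A BMAL1 peak of shControl cells was taken when it lay off chromosome 19, had no overlap of 1 bp or more with a shControl HIF2α peak or with a shBMAL1 BMAL1 peak, and had its midpoint between 1000 bp upstream and 100 bp downstream of an annotated transcription start site. Of the 1812 shControl BMAL1 peaks, 1545 lay off chromosome 19, 1229 of these held no HIF2α peak and 860 of those lay in a promoter. The shBMAL1 list held a peak at 388 of the 860, termed retained, and none at 472, termed lost. The 472 lost promoter peaks, described here, were thus chosen by their presence in 1 peak list and absence from 2 others, and these calls and the peak strength they follow are given without a test.

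The data were CUT&RUN, in which an antibody directs a nuclease to chromatin and the released DNA is sequenced, from 786-O cells, an established human line of clear cell renal cell carcinoma that lacks functional VHL. Cells carried a lentiviral, puromycin-selected shRNA, either a control sequence (shControl) or one directed at BMAL1 (shBMAL1), and were profiled with antibodies to BMAL1 or HIF2α or with IgG. The peak list of BMAL1 in shControl cells was pooled from 3 libraries and that of BMAL1 in shBMAL1 cells from 2, while those of HIF2α were pooled from 3 libraries in each line, and the 4 IgG libraries had no list. The question addressed was at which promoters BMAL1 was called without a HIF2α peak. It also covered how these sites differed between those that were and were not called after depletion of BMAL1.

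Each group had 1 pooled list, so there was no spread between libraries to set beside any value, and every test below used peaks as its units and described these lists alone. The lists held no read counts, the study's methods describe the libraries kept as similar in depth, and the residual level of BMAL1 was not measured in these files. The shBMAL1 BMAL1 list was the shortest of the 4, with 768 peaks. A lost peak is therefore one that was not called, which does not show that BMAL1 was absent, and the smaller number of shBMAL1 libraries in the pool and less BMAL1 on chromatin cannot be told apart. In the same way, a promoter without a HIF2α peak is one where HIF2α was not called, which does not show that HIF2α was absent.

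BMAL1 is a basic helix-loop-helix PAS protein that forms a heterodimer with CLOCK and binds E-boxes, of which CACGTG is the canonical form. Among its known targets are the genes of its own repressors, the PER and CRY proteins and the nuclear receptors NR1D1 and NR1D2, whose products close the circadian feedback loop. HIF2α belongs to the same family and binds hypoxia response elements with ARNT, and the core of that element is also present in the E-box.

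The sequences below show the E-boxes of lost promoter peaks. Each is read from the hg19 reference 5′ to 3′ on the strand of the named gene, and capitals mark CACGTG. The first group holds peaks with more than 1 E-box near the summit, among them CIART, a repressor of CLOCK and BMAL1 (chr1:150254824-150254925, plus strand), NR1D2, a repressive clock nuclear receptor (chr3:23987445-23987524, plus strand), CDK4, the cyclin D kinase (chr12:58146272-58146374, minus strand), NR6A1, an orphan nuclear receptor (chr9:127533912-127534000, minus strand), FNIP1, a folliculin partner (chr5:131132787-131132897, minus strand), KHDRBS1, an RNA-binding protein (chr1:32479209-32479261, plus strand), SLC4A2, an anion exchanger (chr7:150759508-150759570, plus strand), and APEX1, a DNA repair endonuclease (chr14:20923268-20923349, plus strand).
CIART: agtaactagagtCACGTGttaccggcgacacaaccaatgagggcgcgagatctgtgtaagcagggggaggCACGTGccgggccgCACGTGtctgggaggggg
NR1D2: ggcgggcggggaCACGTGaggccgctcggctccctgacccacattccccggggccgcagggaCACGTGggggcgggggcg
CDK4: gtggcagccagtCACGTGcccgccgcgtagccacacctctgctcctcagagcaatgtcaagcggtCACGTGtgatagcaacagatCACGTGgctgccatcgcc
NR6A1: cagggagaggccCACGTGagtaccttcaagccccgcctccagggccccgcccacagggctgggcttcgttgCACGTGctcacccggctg
FNIP1: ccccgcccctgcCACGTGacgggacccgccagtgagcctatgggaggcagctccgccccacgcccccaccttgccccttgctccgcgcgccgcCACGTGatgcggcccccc
KHDRBS1: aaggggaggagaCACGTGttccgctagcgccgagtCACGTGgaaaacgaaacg
SLC4A2: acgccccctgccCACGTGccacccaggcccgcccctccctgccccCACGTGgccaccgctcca
APEX1: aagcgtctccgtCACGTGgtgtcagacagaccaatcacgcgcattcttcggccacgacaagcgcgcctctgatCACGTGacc

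The lost peaks at the repressor genes CRY1, CRY2 and NR1D1 held no CACGTG. Each held 1 copy of CACGTT or its reverse complement AACGTG, an E-box variant that differs in its last letter. The next 3 sequences show it in capitals, at CRY1 (chr12:107487375-107487452, minus strand), CRY2 (chr11:45868802-45868879, plus strand) and NR1D1 (chr17:38256969-38257046, minus strand).
CRY1: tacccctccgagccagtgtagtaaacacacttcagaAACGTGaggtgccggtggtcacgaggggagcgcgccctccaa
CRY2: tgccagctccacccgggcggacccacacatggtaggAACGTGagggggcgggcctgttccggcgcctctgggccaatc
NR1D1: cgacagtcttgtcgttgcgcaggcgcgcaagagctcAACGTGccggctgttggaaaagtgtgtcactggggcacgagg

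By strength, which moved with the rule and is given as a description only, the lost promoter peaks were weaker than the retained ones. Their fold enrichment over the local background had a median of 6.08 (quartiles 4.99 and 7.47, range 2.72 to 17.0), against 11.0 in the retained promoter peaks. The −log10 p of MACS2 had a median of 18.3 (range 8.64 to 96.0), against 54.9. Among all 1812 peaks the lost promoter peaks ranked from 209 to 1812 by p, with a median rank of 1156.5. They were also narrower, with a median width of 198.5 bp against 342 bp. The share of peaks lost was 54.9% among BMAL1-only promoter peaks, 77% among BMAL1-only distal peaks off chromosome 19 and 61.3% among all shControl BMAL1 peaks.

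**Figure D1:**
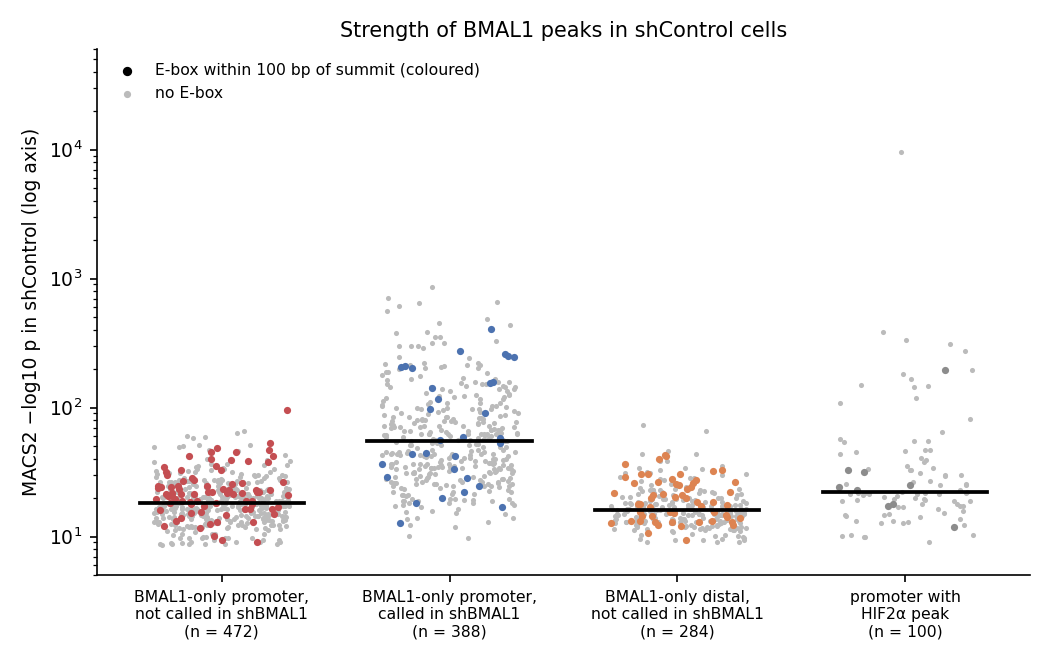
MACS2 −log10 p of each shControl BMAL1 peak on a log axis, 1 point a peak, in 4 classes of peaks off chromosome 19, with the class median as a black line and peaks with an E-box within 100 bp of the summit in colour. The lost promoter peaks had a median of 18.3 and the retained ones 54.9, and the strongest lost promoter peak, at CIART, reached 96.0.

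The 12 lost promoter peaks of smallest p were led by 4 clock repressor genes and RRP9. CIART had a fold enrichment of 17.0 and a −log10 p of 96.0, and 4 E-boxes in the peak. CRY2 followed with a fold of 11.8 and a −log10 p of 66.4, then NR1D1 with 11.4 and 63.0. RRP9, a component of the U3 ribonucleoprotein that processes ribosomal RNA, had a fold of 9.33 and a −log10 p of 60.5, and CRY1 had 11.0 and 59.6. The next lost clock peak, at NR1D2, had a fold of 10.6 and a −log10 p of 45.1.

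The other 7 of the 12 were at SLC25A6, a mitochondrial ADP/ATP carrier (fold 14.1), NR6A1 (13.0), RAD21L1, a meiotic cohesin subunit (12.6), TREX2, a DNA exonuclease (15.9), PDIA4, a disulfide isomerase of the endoplasmic reticulum (7.58), ST20-MTHFS, a read-through of a folate enzyme gene (15.6), and CAMSAP1, which binds microtubule minus ends (10.2). NR6A1 held 2 E-boxes and PDIA4 held 1 E-box and 1 variant, and the remaining 5 held neither in the peak. SLC25A6 lies in the pseudoautosomal region, whose copies on chromosomes X and Y have the same sequence. The list also held a peak at the Y copy (fold 12.3), which was called in shBMAL1 cells, so reads of the copies cannot be told apart and the loss at the X copy is uncertain.

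Of 26 genes of the core clock and its output off chromosome 19, 11 (42.3%) had a shControl BMAL1 peak in a promoter. Of the 26, 5 (19.2%) had a lost promoter peak (CIART, CRY1, CRY2, NR1D1 and NR1D2). Over all protein-coding genes off chromosome 19 these shares were 5.41% and 2.78%. The share of BMAL1-only promoter peaks lost was 54.9%, and whether loss differed at clock genes was not tested. The peaks at PER3 and TEF, without a shControl HIF2α peak, were retained, with folds of 13.5 and 16.2. Those at PER1, PER2, NAMPT and BHLHE40 overlapped a shControl HIF2α peak and so fell outside the rule. NR1D1 had a further peak inside the gene, 972 to 1508 bp downstream of its start site, with a fold of 13.3 and 3 E-boxes. A shBMAL1 peak with a fold of 8.49 was called within that stretch, while the promoter peak, from 419 bp upstream to 4 bp downstream, had no shBMAL1 peak.

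**Figure D2:**
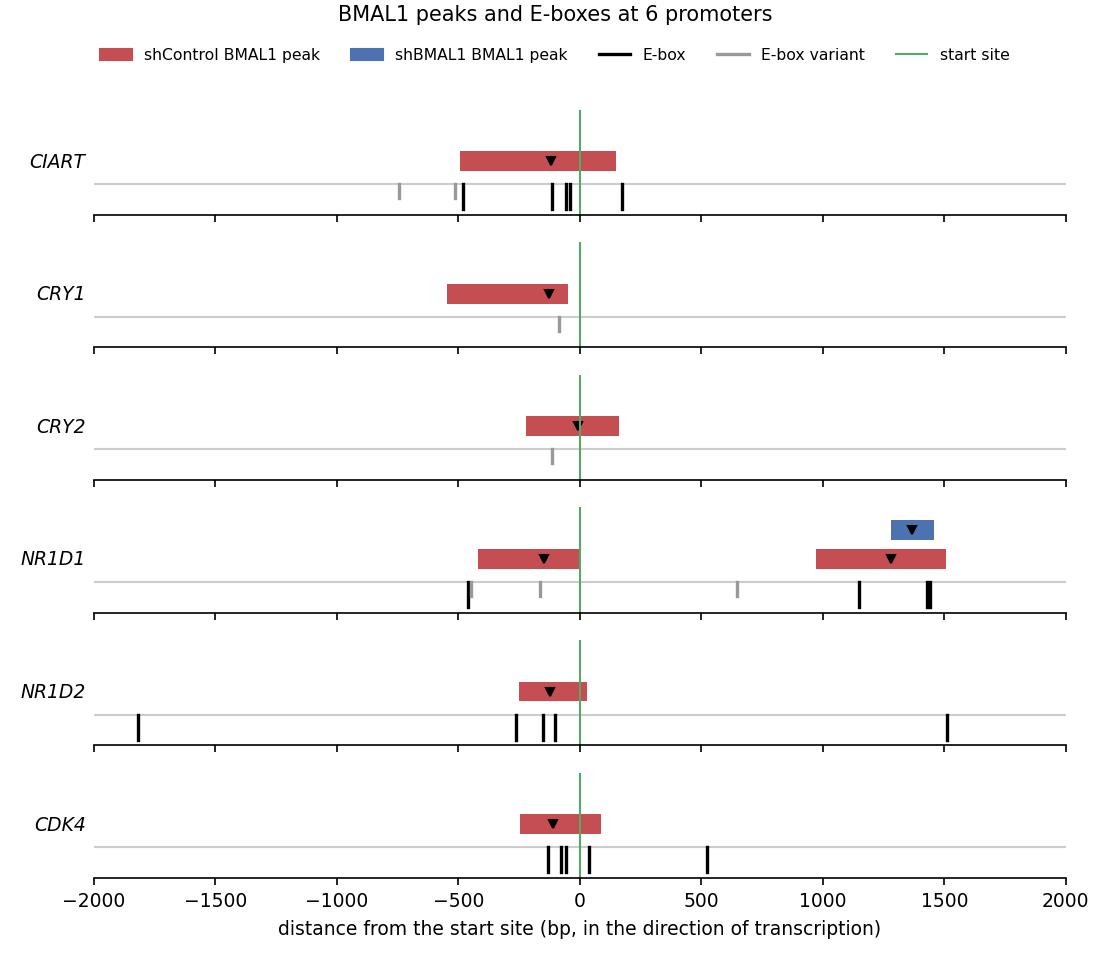
Map of BMAL1 peaks, E-boxes (CACGTG) and E-box variants (CACGTT) from 2000 bp upstream to 2000 bp downstream of the start site of 6 genes with a lost promoter peak, with summits as triangles. Red bars are shControl peaks and the blue bar at NR1D1, 1280 to 1458 bp downstream, is the single shBMAL1 peak in these 6 stretches.

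The E-box was more frequent near the summits of lost promoter peaks than near those of retained ones. CACGTG, which reads the same on both strands, was present within the 200 bp centred on the summit in 81 of 472 lost promoter peaks (17.2%) and in 31 of 386 retained ones (8.03%), 2 retained windows with undetermined bases being left out. The difference was 9.13 percentage points (95% interval 4.69 to 13.5), with a two-sided Fisher's exact p of 6.6e-05 and an adjusted p of 0.000215 over the 13 features compared (Benjamini-Hochberg). In 1 window at the start site of each of 18653 protein-coding genes off chromosome 19 the share was 5.90%. In windows 2000 bp to each side of the lost promoter summits it was 2.86%, a difference of 14.3 points from the summits (95% interval 10.9 to 18.1, Fisher's exact p = 4.07e-20). Summits also exceeded their flanks in retained promoter peaks (8.03% against 3.11%) and in lost distal peaks (20.1% against 4.42%). The flanks of lost promoter peaks differed in other sequence as well, with GGGCGG in 8.37% against 79.2% at the summits. Promoter peaks with a HIF2α peak held an E-box in 9 of 100.

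Because lost peaks were weaker, the shares were also compared within quintiles of peak p over both classes together, termed peaks of like strength below. There the lost promoter peaks exceeded the retained ones by 15.7 percentage points, with a p of 4.71e-06 in the Cochran-Mantel-Haenszel chi-square test and 6.13e-05 after adjustment over the 13 features. In the weakest quintile the E-box share was 9.43% of 159 lost peaks, against 1 of 13 retained ones. It was 13.1% of 145 against 3 of 27 in the second, 25.6% of 117 against 7.41% of 54 in the third and 33.3% of 48 against 7.26% of 124 in the fourth. The strongest quintile held 1 E-box in 3 lost peaks and 8.33% in 168 retained ones. The classes were thus unevenly filled. Apart from the strongest quintile, with its 3 lost peaks, the gap was widest in the quintiles with 48 and 117 lost peaks. Within the lost promoter peaks alone, the share was 9.47% in their weakest quintile, 29.8% in the fourth and 23.4% in the strongest.

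**Figure D3:**
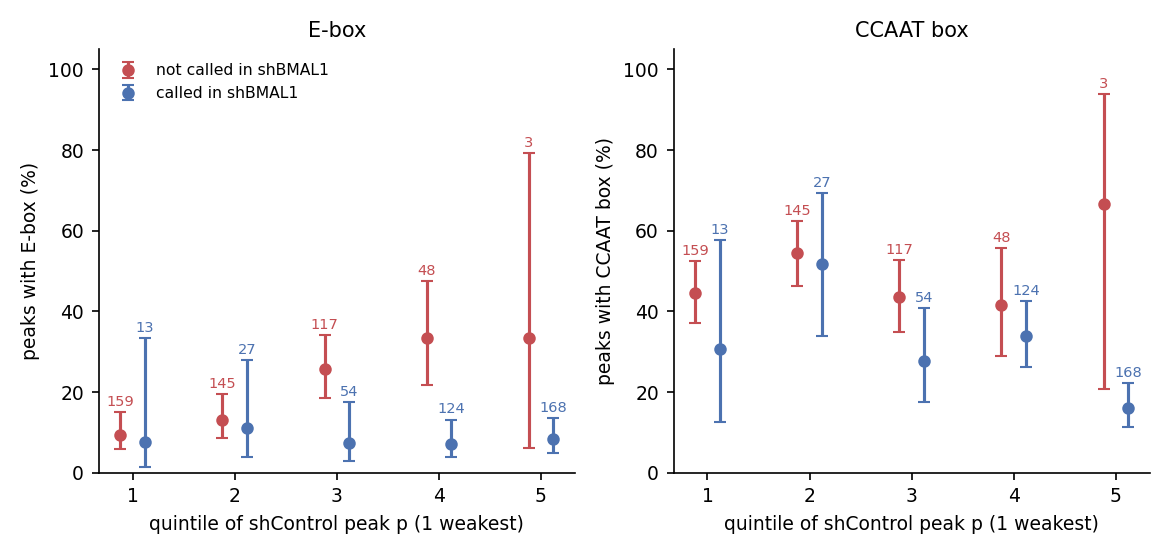
Share of lost (red) and retained (blue) BMAL1-only promoter peaks with an E-box (left) and with a CCAAT box (right) in the 200 bp at the summit, by joint quintile of shControl peak p, with 95% Wilson intervals and the number of peaks above each. In the fourth quintile 33.3% of lost and 7.26% of retained peaks held an E-box, and the intervals there do not overlap.

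Repeated E-boxes, a subset of the E-box windows above, were more frequent in lost than in retained promoter peaks. Of the 472, 18 windows (3.81%) held at least 2 E-boxes, against 3 of 386 retained windows (0.777%), a difference of 3.04 points (95% interval 1.01 to 5.23, Fisher's exact p = 0.00359). The share was 3.18% in lost distal peaks (9 of 283), so it was not particular to promoters, and 0.466% among the protein-coding start sites. This comparison was not adjusted for the other tests and was not made within quintiles of peak p. Of the lost promoter windows, the 12 of smallest p were CIART, NR6A1, NR1D2, CDK4, ERP29, G6PC3, ATG3, FNIP1, KHDRBS1, DNAAF5, SLC4A2 and APEX1. ERP29 is a chaperone of the endoplasmic reticulum (fold 8.16), G6PC3 a glucose-6-phosphatase (12.3), ATG3 the enzyme that transfers LC3 to lipid (7.60), and DNAAF5 a dynein assembly factor (5.38). Their folds ranged from 5.11 at SLC4A2 to 17.0 at CIART.

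Spacing between the E-boxes varied from peak to peak. Start to start, the shortest distance was 14 bp at CIART, 20 bp at CDK4 and G6PC3, 23 bp at KHDRBS1 and ATG3, 50 bp at NR1D2 and 81 bp at FNIP1. No lost promoter window held E-boxes, or an E-box and a CACGTT, with a gap of 6 or 7 bp between them, the arrangement of tandem E-boxes described for clock genes. The counts were 0 of 472, against 1 of 386 retained promoter windows, 1 of 283 lost distal ones and 4 of 18653 protein-coding start sites. The arrangement was too rare in every class for its absence to be read as a difference. At 2 genes the E-boxes belonged to a repeated unit. GET4, of the machinery that inserts tail-anchored proteins, had 7 E-boxes at a constant distance of 30 bp (fold 4.96), and DNAAF5 had 10, with a median distance of 59 bp. The GET4 stretch (chr7:915906-916117, plus strand) is shown for its repeat, with CACGTG in capitals.
GET4: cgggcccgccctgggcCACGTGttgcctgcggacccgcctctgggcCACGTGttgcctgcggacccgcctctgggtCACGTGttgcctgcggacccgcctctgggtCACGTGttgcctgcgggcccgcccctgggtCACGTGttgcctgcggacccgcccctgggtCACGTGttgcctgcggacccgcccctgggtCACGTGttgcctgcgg

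In the windows with an E-box, the one nearest to the summit lay at a median of 44.5 bp from it in lost promoter peaks (quartiles 19.5 and 68.5), 54.5 bp in retained promoter peaks and 37.5 bp in lost distal ones. Of the 81 lost windows, 29 had an E-box centred within 25 bp of the summit. Across bins of 50 bp, the share of lost promoter peaks with an E-box was 6.99% from 100 to 50 bp before the summit in genome direction, 5.51% in the bin before the summit and 5.30% in the bin after it. It was 0.847% in the outermost bin on each side.

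**Figure D4:**
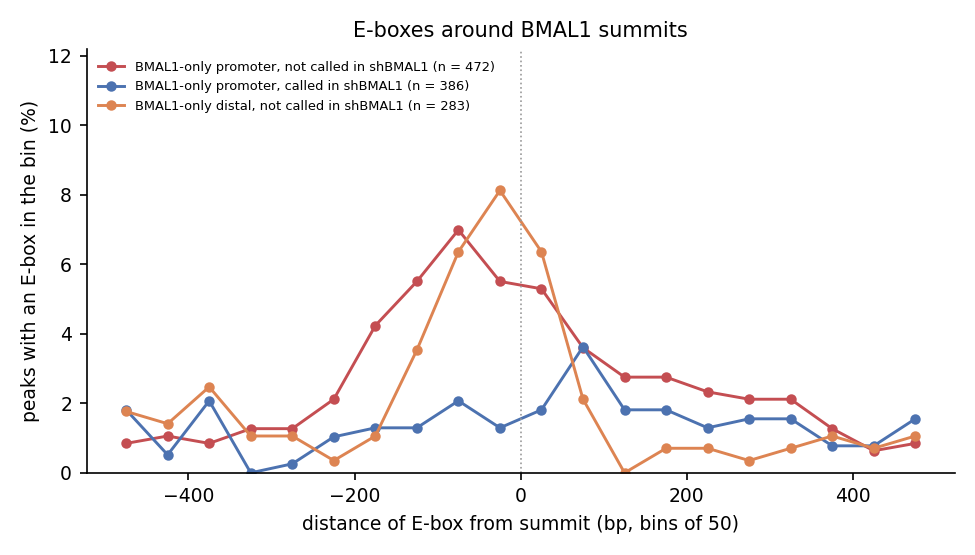
Share of peaks with an E-box in each 50 bp bin, by distance from the summit along the genome, for lost promoter (red), retained promoter (blue) and lost distal (orange) BMAL1-only peaks. The lost promoter peaks reached 6.99% near the summit and 0.847% in the outermost bins.

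The base beside the E-box was compared in the windows that held one. At least 1 E-box was preceded by T on either strand (TCACGTG or CACGTGA) in 52 of 81 lost windows with an E-box (64.2%) and in 8 of 31 retained ones (25.8%), a difference of 38.4 points (95% interval 17.8 to 53.8, Fisher's exact p = 0.000314, adjusted p = 0.000943 over 3 comparisons). In windows centred on the peak midpoint the difference was 23.6 points and the call was lost (Fisher's exact p = 0.0521). A window with more E-boxes has more chances to hold this form, and repeated E-boxes were more frequent in lost windows. Counted over both sides of every E-box, T preceded it at 37.5% of 216 sides in lost and 17.1% of 70 in retained windows. That narrower gap was not tested. The base was chosen after its values were seen. Among the retained windows with an E-box were those at FAM86GP, FAM86C2P, FAM86EP and FAM86KP, genes of the same family. Similarity of sequence between retained windows was not examined, so these windows may not be independent units. The lost windows did not differ detectably from lost distal windows (54.4% of 57, difference 9.81 points, interval −6.56 to 25.8) or from windows with an E-box at protein-coding start sites (57.5% of 1100, difference 6.65 points, interval −4.59 to 16.7). In the sequences above the T-preceded form is present at CIART, CDK4 and KHDRBS1, among others.

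Most lost promoter peaks held no canonical E-box. Over the whole peak, 95 of 472 held CACGTG, a further 18 held CACGTT alone and 359 held neither. The CCAAT box, the site of the trimeric factor NF-Y, was the feature with the largest difference among the 13. CCAAT on either strand was present in 47.2% of lost and 26.4% of retained promoter windows, 20.8 points apart (95% interval 14.4 to 26.9, Fisher's exact adjusted p = 5.21e-09), and in 25.4% of protein-coding start sites. In the same strata of peak p they were 11.3 points apart, with a Cochran-Mantel-Haenszel chi-square p of 0.0157 and an adjusted p of 0.0838, so the call did not hold after adjustment. The sequences below show it in capitals in the strongest lost peaks with a CCAAT box in the 200 bp window and no E-box in the peak. They are at CRY2 (chr11:45868862-45868916, plus strand), RRP9 (chr3:51976007-51976035, minus strand) and CRY1 (chr12:107487362-107487390, minus strand), where the box crosses the edge of the peak.
CRY2: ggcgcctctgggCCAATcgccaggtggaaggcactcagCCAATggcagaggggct
RRP9: ctgcagaaggacCCAATggagcagtagga
CRY1: ggagcgcgccctCCAATgaggagccgggg

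The GC box, GGGCGG on either strand and the site of Sp1, went the other way. It was present in 79.2% of lost and 91.5% of retained promoter windows, a difference of −12.2 points (95% interval −16.8 to −7.52, Fisher's exact adjusted p = 2.36e-06), and in 46.2% of protein-coding start sites. In peaks of like strength it was −2.92 points (Cochran-Mantel-Haenszel chi-square p = 0.370). In the same direction, the median GC content of the windows was 68.5% in lost and 71.75% in retained peaks. The share of windows with a CpG ratio (observed over expected) above 0.6 was 84.5% and 85.2%, with an interval of the difference from −5.47 to 4.20 points.

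AP-1 sites (TGACTCA or TGAGTCA) were in 5.51% of lost and 1.30% of retained windows (Fisher's exact adjusted p = 0.00202), and in peaks of like strength they were 1.94 points apart (Cochran-Mantel-Haenszel chi-square p = 0.284). The core of the hypoxia response element, ACGTG or GCGTG on either strand and outside an E-box, was in 60.4% and 56.2%, with an interval of the difference from −2.45 to 10.8 points. In peaks of like strength they were 11.0 points apart (Cochran-Mantel-Haenszel chi-square p = 0.0193, adjusted p = 0.0838). For the NRF1 site the shares were 5.72% and 3.11%, and for the ETS site CCGGAAG they were 10.2% and 9.59%. The cyclic AMP response element TGACGTCA had 1.91% and 0.259%, and the YY1 site (AAGATGGCG or AACATGGCG) had 0.424% and 1.30%. None of these last 4 passed an adjusted p of 0.05, and the lowest, for the cyclic AMP response element, was 0.0577.

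Before strength was taken into account, lost promoter peaks more often lay close to a start site. The rule bounded this distance in both classes. The midpoint was within 100 bp of one in 60.4% of lost and 42.2% of retained promoter peaks, 18.2 points apart (95% interval 11.5 to 24.6, Fisher's exact adjusted p = 7.82e-07). In peaks of like strength they were 9.66 points apart (Cochran-Mantel-Haenszel chi-square p = 0.0415, adjusted p = 0.135), so the call did not hold after adjustment. Retained peaks were also wider (median 342 bp against 198.5 bp), and the part of width in the midpoint was not tested. Start sites on both strands were present at 33.9% and 26.9% (Fisher's exact adjusted p = 0.0577).

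**Figure D5:**
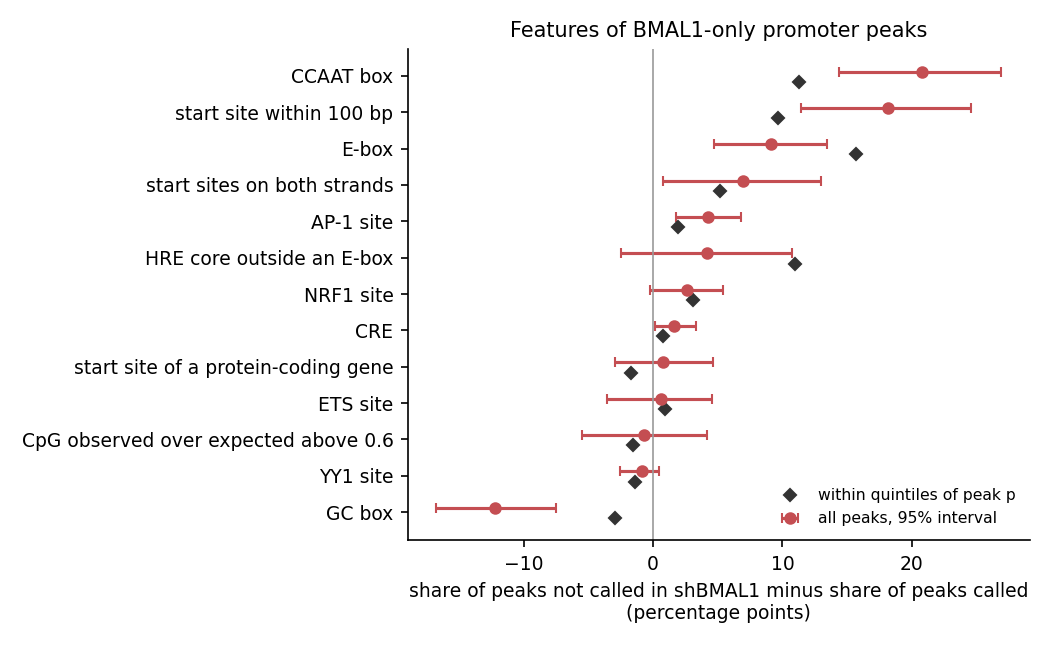
Difference in the share of peaks with each of 13 features, lost minus retained BMAL1-only promoter peaks, in percentage points, with 95% intervals over peaks (red), and the same difference within quintiles of peak p (black diamonds). The E-box difference was 9.13 points over all peaks and 15.7 within quintiles, while that of the GC box went from −12.2 to −2.92.

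All 2080 words of 6 letters, counted with their reverse complements, were compared in the same windows without choosing motifs. In all, 49 words (2.36%) were higher in lost and 15 (0.721%) higher in retained promoter peaks at an adjusted p below 0.05 (Fisher's exact test, Benjamini-Hochberg). The words higher in lost peaks were led by ATTGGC, which holds the CCAAT box (29.0% against 11.9%), and included ACGTGA, part of the T-preceded E-box (13.8% against 4.66%). The words higher in retained peaks were led by CGGGGC (61.9% against 82.9%) and CGCCCC (71.8% against 89.4%), which are made of C and G alone. In peaks of like strength the differences were smaller for ATTGGC (9.73 points), CGGGGC (−9.36) and CGCCCC (−7.48), and that of ACGTGA was 10.9 points. Overlapping words share bases and are not separate findings.

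Compared with the 284 lost BMAL1-only peaks outside promoters, the lost promoter peaks did not differ detectably in E-box share and differed in most other features. The E-box share was 17.2% against 20.1%, with a difference of −2.98 points (95% interval −8.93 to 2.64, Fisher's exact p = 0.331). The GC box was in 79.2% against 18.7%, the CCAAT box in 47.2% against 19.4%, and a CpG ratio above 0.6 in 84.5% against 9.19%. AP-1 sites were in 5.51% against 32.9%, a difference of −27.4 points (95% interval −33.3 to −21.6, Fisher's exact adjusted p = 1.92e-22 over 10 features). ETS sites were in 10.2% against 1.41% (Fisher's exact adjusted p = 1.39e-06) and NRF1 sites in 5.72% against 0.707% (adjusted p = 0.00038). The median fold was 6.08 in the former and 6.22 in the latter.

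Of the 472 lost promoter peaks, 434 lay at a start site of a protein-coding gene and 32 of the other 38 at a long non-coding RNA. Start sites on both strands were within reach of 160 midpoints, and 82 promoters served at least 2 protein-coding genes, such as APEX1 and OSGEP. Relative to the named start site the midpoint lay at a median of −85.5 bp (quartiles −165.5 and −22.75 bp), negative values being upstream. By annotation the summit was intergenic in 196, in an intron in 144, in an untranslated exon part of a coding gene in 82, in an exon of a non-coding gene in 41 and in coding sequence in 9. The peaks were spread over 22 chromosomes, from 49 on chromosome 1 and 41 on chromosome 16 to 5 on chromosome 13. KLF11 and RNF31 each had 2 lost promoter peaks, and no windows of lost promoter peaks were identical in sequence.

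Near the limits of the rule, the peaks furthest upstream were at PHLDB1 (−929 bp, fold 5.66) and at ENSG00000263682 (−903 bp, 7.09), and the nearest beyond 1000 bp were at TESK1 (−1014 bp, 4.48) and MAP3K6 (−1076 bp, 4.76). Downstream, MAOA (88 bp, 7.09) and ADPRHL1 (84 bp, 6.28) were inside, and PPFIBP2 (103 bp, 11.5) and RTEL1 (110 bp, 7.57) outside. The lost peak closest to any shBMAL1 BMAL1 peak was at TEDC1, 504 bp away, followed by PPP2R5C at 508 bp. A shControl HIF2α peak lay 78 bp from the peak at DAG1 and 342 bp from that at SLC50A1.

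HIF2α was seldom called at these promoters in shBMAL1 cells, which was partly set by the rule, since peaks with shControl HIF2α were left out. A shBMAL1 HIF2α peak overlapped 9 of 472 lost promoter peaks (1.91%) and 4.12% of the retained ones, a difference of −2.22 points (95% interval −4.85 to 0.0801, Fisher's exact p = 0.0662). The direction turned, to 0.106 points, when every list was held to a p of 1e-20, and to 0.455 points with lists of equal length. Over all BMAL1-only peaks off chromosome 19 the share was 4.31%. Over all shControl BMAL1 peaks, which include those with shControl HIF2α, it was 14.5%, and at promoter peaks with shControl HIF2α it was 53 of 100. The 9 were at MET, the hepatocyte growth factor receptor (fold 7.46), SURF4 (7.34), LMNA, which encodes lamin A (7.50), CUTA (6.09), IFT140, a ciliary transport subunit (5.69), ADPRHL1 (6.28), ANKRD12 (5.44), ROGDI (3.47) and ENSG00000231704 (6.54). MET, CUTA and ADPRHL1 held 1 E-box in the window and ANKRD12 held 2.

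Across gene lists, a lost promoter peak was present at 518 of 18656 protein-coding genes off chromosome 19 (2.78%) and any shControl BMAL1 peak at 1009 (5.41%). Counts for the lists below describe them beside these shares and beside the 54.9% of all BMAL1-only promoter peaks that were lost. Of 33 cell cycle genes, 5 had a shControl BMAL1 promoter peak and all 5 were lost. They were CDK4 (fold 11.0, 4 E-boxes in the peak), CHEK2, a checkpoint kinase (6.56), E2F1 (6.44), CDC25C, a phosphatase that activates CDK1 (5.76), and E2F3 (5.39). The last 4 held no E-box, and the peaks at CHEK2 and CDC25C lay in promoters shared with HSCB and FAM53C.

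Of 46 proteasome genes, 7 had a BMAL1 promoter peak, and 6 had a lost one. PSME1 and PSME2 encode the subunits of the PA28 activator. The peak at PSME1 had a fold of 8.56 and a −log10 p of 34.5, and the 2 peaks at PSME2, in promoters shared with RNF31, had a −log10 p of 31.8 and 24.8. PSMD9 (7.01) held the single E-box of the group, and PSMB10 (5.71), PSMD3 (4.93) and PSMD14 (4.83) held none. PSMG1, an assembly chaperone, had a retained peak. Of 40 lysosome and autophagy genes, 4 had a lost peak, FNIP1 (6.03), TFE3, a transcription factor of lysosomal genes (6.08), WIPI1 (5.56) and UVRAG (4.63), and MAP1LC3B had a retained one (16.9).

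For the mitochondrion, 3 of 74 ribosomal protein genes had a lost peak (MRPS18B at 6.57, MRPL2 at 5.51 and MRPS17 at 4.24) and 2 had a retained one. Of 31 genes of respiratory complex I, 3 had a BMAL1 promoter peak, NDUFA6 (8.04), NDUFA5 (4.99) and NDUFV3 (4.49), all lost. None of these 6 lost peaks held an E-box. Of 74 cytosolic ribosomal protein genes and 77 histone genes, none had a lost peak. Of 351 solute carrier genes, 10 had one, the strongest being SLC25A6 and then SLC2A4, the insulin-responsive glucose transporter GLUT4 (fold 12.1, 1 E-box). The others among the 8 of smallest p were SLC30A1 (6.77), SLC4A2 (5.11), SLC35E4 (5.47), SLC35C1 (5.58), SLC25A28 (5.12) and SLC25A32 (3.54).

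Of 17 bHLH-PAS genes, ARNT and NCOA2 had a lost promoter peak, with folds of 9.25 and 3.91 and no E-box. The ARNT gene differed from the others in that it held 14 shControl BMAL1 peaks and 14 shControl HIF2α peaks along its length, so its promoter peak was 1 of many, and the part of this in the call was not tested. Of 25 hypoxia response genes, none had a lost promoter peak, while 4 had a shControl BMAL1 peak and 12 a shControl HIF2α peak. Since peaks with HIF2α were left out by the rule, that count was partly set by it.

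Of 262 genes of the ZNF family off chromosome 19, 5 had a lost peak, ZNF174 (5.93), ZNF124 (7.01), ZNF706 (4.03), ZNF672 (4.38) and ZNF771 (4.16), and 7 had a retained one. Among microRNA genes and their hosts, 6 of 1305 had a lost peak. MIR22HG, the host of miR-22, shared its promoter with WDR81 (fold 7.78), and MIRLET7A1HG, a host of let-7 microRNAs, had a fold of 5.60 and 1 E-box. MIR191, MIR484, MIR4479 and MIR4444-1 lay at promoters of the protein-coding genes NDUFAF3, NDE1, TRAF2 and HNRNPA3, and the small nucleolar RNA SNORD60 at that of TRAF7.

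Over whole genes, 23 of the 472 lost promoter peaks lay at genes that held a further shControl BMAL1 peak. For 9 the gene held a shBMAL1 BMAL1 peak, NR1D1 among them. The gene held a shControl HIF2α peak for 23 of the lost promoter peaks and a shBMAL1 HIF2α peak for 28. The 28 include genes whose lost promoter peak itself overlapped a shBMAL1 HIF2α peak, such as MET and SURF4. No share over other peaks or over all genes was computed, so these counts cannot be read as high or low.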

How the data were processed

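The 15 CUT&RUN libraries were made by the authors from 786-O cells. The authors aligned reads to hg19 with Bowtie2 2.5.3, called peaks with MACS2 2.2.9.1 and removed blacklisted regions with bedtools 2.31.1, and deposited 1 list pooled over the libraries of each BMAL1 or HIF2α group. Whether IgG served as control is not stated, and the authors left out 1 further shBMAL1 BMAL1 library for few reads. The deposited values are the fold enrichment (a ratio over the local background), the −log10 p per peak, a score derived by the authors from the q-value, and the summit position, and a column of −log10 q was not used. No per-sample column was present. The lists give no depth, and the study's methods describe the libraries kept as similar in depth.

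Peaks of different lists sharing 1 bp or more were taken as overlapping. Start sites came from GENCODE release 44 lifted to the GRCh37 assembly, which shares coordinates with hg19. Sequence was read from that assembly, in 200 bp windows centred on the summits, and motifs were searched on both strands. Shares over peaks were compared with two-sided Fisher's exact tests (scipy 1.17.1) and, within quintiles of peak p, with the Cochran-Mantel-Haenszel test (statsmodels 0.14.6), with Benjamini-Hochberg adjustment. Intervals are 95% Wilson or Newcombe intervals and cover counting error over peaks only. Each peak counted as a separate unit, and similarity of sequence between retained peaks was not examined. The scripts were tested on simulated data.

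The peaks, gene lists and comparisons were chosen with earlier results of these data known, so that patterns shared with all BMAL1 peaks, the lower E-box share of retained peaks among them, are not independent support. Named were the 12 lost promoter peaks of smallest p, up to 8 per gene list, up to 12 with at least 2 E-boxes in the window, those nearest the limits of the rule, and genes with 2 such peaks. Peaks with a shBMAL1 HIF2α peak and the non-member peaks of the clock list were named after their values were seen. A gene was counted as having a peak where the peak midpoint lay in the promoter of any of its transcripts, except for the counts over gene bodies.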

Additional observations from a re-analysis of the deposited data

How the results depend on the processing

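In all, 9 results were recomputed under alternatives, giving 93 values, of which 57 had been planned and 36 were added after the data were seen. In 81 the direction and the side of the threshold, or the count within 1.5 times, were the same. The E-box difference between lost and retained promoter peaks ranged from 6.47 to 18.2 points (Fisher's exact p from 7.04e-08 to 0.000115) and within strata from 8.53 to 22.0 points (chi-square p from 7.73e-08 to 0.000349). Among these was the use of quintiles with at least 20 peaks of each class only, with 17.2 points (chi-square p = 5.84e-06). The GC box difference ranged from −17.4 to −7.82 points and that of the CCAAT box from 15.6 to 24.3 points. The number of lost promoter peaks was 277 when every list was held to a p of 1e-20 and 88 when lists were cut to the 768 strongest peaks, both by construction of shorter lists. Under the same 2 settings the difference in shBMAL1 HIF2α overlap reversed to 0.106 points (Fisher's exact p = 1) and 0.455 points (p = 0.677), and with chromosome 19 kept it was −2.17 points (p = 0.0481). The E-box difference from lost distal peaks reversed to 0.195 points with promoters of 2500 bp to each side (Fisher's exact p = 1) and to 3.65 points in 400 bp windows (p = 0.310). The CCAAT difference within strata, whose call did not hold after adjustment over the 13 features, also missed an unadjusted p of 0.05 with lists of equal length (13.2 points, chi-square p = 0.0513), strata of fold (6.82, p = 0.110), strata of p and GC content together (7.82, p = 0.0854) and quintiles of at least 20 peaks (9.69, p = 0.0541). The T-preceded E-box lost its call in windows centred on midpoints (23.6 points, Fisher's exact p = 0.0521). The cause was not tested for any of these changes. No paired analysis was possible because each group has 1 pooled list whose columns carry no replicate numbers, and for the same reason no library could be left out. The peak lists hold no signal below the threshold in shBMAL1 cells, and coverage tracks were not used here.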
